A study of Caenorhabditis elegans with 2 samples.

Results

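The Pumilio family genes of Caenorhabditis elegans were examined for nearby binding of TLF-1, the worm relative of the TATA-binding protein TBP. The 10 genes fbf-1, fbf-2, puf-3, puf-5, puf-6, puf-7, puf-8, puf-9, puf-11 and puf-12 were taken by name from the WBcel235 annotation. That annotation holds 19973 protein-coding genes on the nuclear chromosomes. No measured value entered the rule, but the family was chosen with earlier results of these data known. Chromatin was immunoprecipitated with an antibody against GFP from whole young adults of strain OP749, aged 65.5 hours, males and females together, after synchronization by bleaching and starvation of L1 larvae. The strain stably carries the transgene wgIs749, with tlf-1 fused to TY1, EGFP and 3xFLAG and with unc-119(+), in an unc-119(tm4063) background. There was 1 group of 2 biological replicates, numbered in the labels, and no untagged strain or other condition was analysed here, so all values below describe where peaks lie and carry no test between groups. Whole animals were used, so binding in the germline and in the soma cannot be told apart.

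Pumilio and FBF (PUF) proteins bind short sequence elements, mostly in the 3′ ends of messenger RNAs, and usually reduce the translation or stability of those messages together with partner proteins. In the worm, FBF-1 and FBF-2 maintain germline stem cells and are required for the switch from sperm to oocytes, and PUF-3 and PUF-11 share in stem cell maintenance. PUF-5, PUF-6 and PUF-7 act in oocytes, PUF-8 acts in germ cell proliferation and spermatocyte fate, and PUF-12 belongs to a divergent branch whose yeast relative Puf6 acts in ribosome assembly. PUF-9 is the member known from somatic tissue, where it represses hbl-1 at the larval-to-adult switch.

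Values come from 4 peak lists of the authors, all on ce11, the name of WBcel235 in a genome browser. They hold 24495 peaks for replicate 1, 23453 for replicate 2, 28153 for both pooled, and 1880 in a set kept for reproducibility between replicates by the irreproducible discovery rate (IDR), which are the 1880 strongest pooled peaks. The value of a peak below is the authors' own signal value, the read depth behind it is unknown, and values were compared only within a list, where rank 1 is the strongest peak. A summit counted for a gene when it lay at most 1000 bp before or 500 bp after the annotated start, and distances before it are negative. The start of a trans-spliced transcript as annotated can lie downstream of the true transcription start.

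The sequences under the strongest binding are shown first, since the comparisons below turn on them. Each run holds the 200 bp around the strongest pooled summit of a member, read 5′ to 3′ on the strand of the gene, from the RefSeq copy of WBcel235. The 4 members shown are those with an IDR summit. Capitals mark matches on either strand to any of 5 short words, which were TTNGCGC for an E2F-like site, GCGCCA for a GC-rich word that can overlap it, TATAAA for the TATA box, CCAAT as a promoter word and GGGCGG for the GC box. The runs lie at chrX:5841194-5841393 (plus strand) for puf-9, chrIV:13512271-13512470 (minus strand) for puf-3, chrIV:6421299-6421498 (plus strand) for puf-11 and chrII:8575299-8575498 (plus strand) for puf-5.
puf-9: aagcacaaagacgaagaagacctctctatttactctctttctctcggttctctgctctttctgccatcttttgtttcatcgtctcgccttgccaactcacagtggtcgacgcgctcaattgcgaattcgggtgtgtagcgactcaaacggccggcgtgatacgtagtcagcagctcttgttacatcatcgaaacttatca
puf-3: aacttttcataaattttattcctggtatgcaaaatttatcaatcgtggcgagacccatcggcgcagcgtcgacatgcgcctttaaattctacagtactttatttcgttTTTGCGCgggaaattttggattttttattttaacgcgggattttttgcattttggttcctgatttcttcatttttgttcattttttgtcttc
puf-11: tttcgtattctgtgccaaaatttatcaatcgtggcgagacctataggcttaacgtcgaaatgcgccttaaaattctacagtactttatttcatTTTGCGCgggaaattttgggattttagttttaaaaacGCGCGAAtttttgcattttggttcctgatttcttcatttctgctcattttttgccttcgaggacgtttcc
puf-5: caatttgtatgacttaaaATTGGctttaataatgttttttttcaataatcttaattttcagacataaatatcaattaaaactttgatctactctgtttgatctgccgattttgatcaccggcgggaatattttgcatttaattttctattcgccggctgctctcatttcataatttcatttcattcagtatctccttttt

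An IDR summit lay in the windows of 4 of the 10 genes, puf-9, puf-3, puf-11 and puf-5, against 6.98% of all coding genes. All 4 summits were upstream of the start, and none lay in the window of another coding gene. In the pooled list 9 of 10 members had a summit in the window, where 40.4% of all coding genes did. Replicate 1 had one at 7 members, against 37.2% of coding genes, and replicate 2 at 9, against 36.8%. The member lacking a summit in every list was fbf-1. The counts in the pooled and replicate lists, and the shares of coding genes beside them, take peaks of any q-value. The authors' −log10 q-value, lower for weaker evidence, was 0.131 to 0.522 for the best pooled peaks of fbf-2, puf-8, puf-6 and puf-12. It was 2.77 at puf-7 and 3.51 at each of the 4 members with an IDR summit. Among the 1880 strongest peaks of each replicate, 3 members had a summit in replicate 1 (6.89% of coding genes) and 4 in replicate 2 (6.59%). The median best value of the 9 members with a pooled summit was 69.5, and that of the 8069 coding genes with one was 37.8, with quartiles at 26.9 and 64.1.

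**Figure D1:**
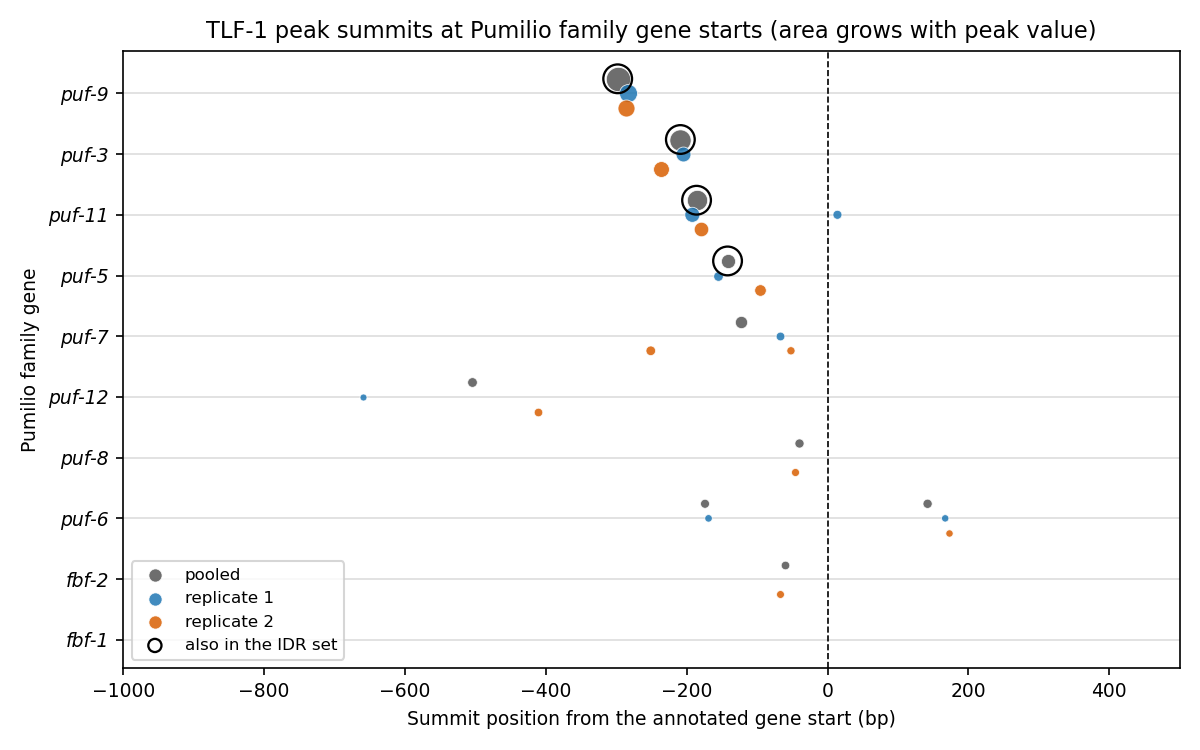
Position of each peak summit from the annotated gene start in bp (x axis) for the 10 Pumilio family genes (y axis), in the pooled list and in each replicate, with point area growing with the authors' peak value and an open circle around summits that are also in the IDR set. The 4 circled summits lie between -298 and -142 bp, and fbf-1 has no summit in the window.

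The strongest peak of the family stood in front of puf-9 (WBGene00004245, chromosome X, 5841592 to 5845987, plus strand), the somatic member. Its value was 166 in replicate 1 and 146 in replicate 2, and 315 in the pooled list. These were rank 96 of 24495 peaks, rank 161 of 23453 and rank 120 of 28153, so the peak was near the top of every list. The summit lay at -284 bp in replicate 1, -286 bp in replicate 2 and -298 bp in the pooled list, so the replicates placed it 2 bp apart. The pooled peak spanned 5841193 to 5841421. At the start window of coding genes, 127 genes had a stronger pooled peak than puf-9, since it took place 128 of 8069.

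The summit of puf-9 fell inside short non-coding RNA genes annotated on both strands. W06B11.7 (5841170 to 5841350, minus strand) is 181 bp long and W06B11.9 (5841185 to 5841361, plus strand) is 177 bp. Of the 1081 IDR summits in coding start windows, 83 (7.68%) lay over a gene annotated as ncRNA and 26 (2.41%) over such genes on both strands. The nearest coding gene upstream, dct-11, is divergent and lies 1813 bp away, and the puf-9 summit was not in its window. Among coding genes, the peak can be assigned to puf-9 by distance alone. The pooled summit at 5841294 lay nearer to the starts of W06B11.7 (5841350) and W06B11.9 (5841185) than to that of puf-9 (5841592). The part of the non-coding genes in the peak was not tested.

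An IDR summit lay in the start windows of 3.52% of 2731 X-linked coding genes and of 7.53% of 17242 autosomal ones. Of the Pumilio genes, puf-9 is the 1 on X, and 3 of the 9 on autosomes had an IDR summit. Among the 242 IDR peaks on X, the puf-9 peak ranked 20. Among the 89 of these that lay in a coding start window it ranked 5.

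The next members were puf-3 (WBGene00004239, chromosome IV, 13510307 to 13512162, minus strand) and puf-11 (WBGene00022257, chromosome IV, 6421585 to 6423497, plus strand), paralogues that act in the germline. The puf-3 peak measured 237 in the pooled list, from 108.5 in replicate 1 and 125 in replicate 2. In replicate 1, replicate 2 and the pooled list its ranks were 253, 228 and 217, and its summits lay at -205, -237 and -209 bp. Both replicates thus placed puf-3 near the top, below puf-9. The puf-11 peak measured 214 in the pooled list, from 111.5 in replicate 1 and 103 in replicate 2. In the same order its ranks were 237, 354 and 273, and its summits lay at -192, -179 and -186 bp. The order of puf-3 and puf-11 turned over between the replicates, so the 2 genes did not differ beyond the replicate spread. The puf-3 start and its summit lie within an intron of afmd-2, which runs on the opposite strand, while the puf-11 summit was intergenic, downstream of htp-2.

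The puf-5 peak was weaker and varied more. The gene (WBGene00004241, chromosome II, 8575541 to 8577787, plus strand) encodes a regulator of oocyte messages. Its peak measured 97.1 in the pooled list, from 37.1 in replicate 1 and 60.4 in replicate 2. The ranks in replicate 1, replicate 2 and the pooled list were 2543, 1099 and 1406, so the peak was outside the 1880 strongest of replicate 1 and inside those of replicate 2. In that order the summits lay at -156, -96 and -142 bp. The preceding gene F54C9.7 lies on the same strand and ends 474 bp before the start of puf-5.

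Set against its germline paralogues, puf-9 had the highest value of the family in all 4 lists. In the pooled list its value was 1.33 times that of puf-3 and 1.47 times that of puf-11. In replicate 1 it was 1.49 times that of puf-11, the next member, and in replicate 2 it was 1.17 times that of puf-3. The rest of the family lay further below. The 8 others with a pooled summit include puf-3, puf-11 and puf-12, and also puf-6 and puf-7, whose values are uncertain because of sequence copies. The median of these 8 was 53.6, and the value of puf-9 was 5.87 times that. That ratio was 5.10 in replicate 1, over 6 others, and 4.62 in replicate 2, over 8 others. A single gene against its paralogues allows no test, and with 2 replicates the margin over puf-3 and puf-11 rests on the side-by-side values alone.

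**Figure D2:**
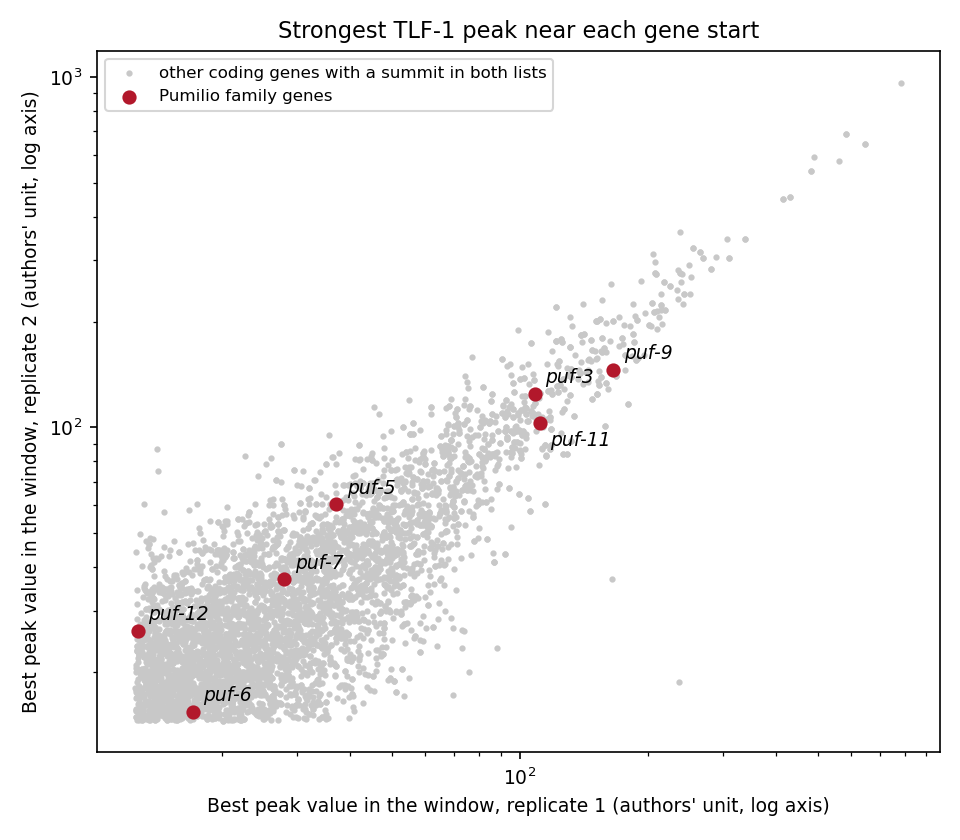
Best peak value in the start window in replicate 1 (x axis) and replicate 2 (y axis), both in the authors' unit on log axes, for 5115 coding genes with a summit in both lists, with 7 Pumilio family genes in red. The puf-9 point lies highest of the 7, puf-3 and puf-11 lie close together, and puf-12, at 12.7, is the lowest of the 7 in replicate 1 and puf-6, at 15.4, the lowest in replicate 2.

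The remaining 6 members had no IDR summit in the window. The strongest was puf-7 (WBGene00004243, chromosome IV, 5486713 to 5490322, plus strand), with a pooled value of 69.5, under the lowest IDR value of 83.6. Its best value was 28.0 in replicate 1 at -67 bp and 36.9 in replicate 2 at -251 bp, ranks 4738 and 3173. Replicate 2 had a further summit at -52 bp with a value of 22.9 and rank 9170, close to that of replicate 1. The pooled summit at -123 bp also lay in the window of snpc-3.1, a divergent gene for a subunit of the complex that serves snRNA promoters. The pooled peak of puf-12 (WBGene00014165, chromosome II, 10100310 to 10103061, plus strand) was weaker, with a value of 37.7 and rank 8892. It lay at -505 bp in a coding exon of pas-7, a divergent proteasome subunit gene, 49 bp after the start of pas-7 and so nearer to it than to puf-12. When each summit counted only for the coding gene with the nearest start, 8 members had a pooled summit. The value was 12.7 in replicate 1 at -660 bp and 26.3 in replicate 2 at -411 bp, so the replicate summits were 249 bp apart.

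The other germline members had weaker peaks or none, below the median of 37.8 for the best pooled value of coding genes with a summit. The gene puf-8 (WBGene00004244, chromosome II, 7296110 to 7298247, minus strand) had a pooled value of 32.1 at -41 bp and 21.4 in replicate 2 at -46 bp, with no summit in replicate 1. For fbf-2 (WBGene00001402, chromosome II, 6088863 to 6091480, minus strand) the pooled value was 26.4 at -60 bp and that in replicate 2 was 20.1 at -68 bp, with none in replicate 1. The summit of fbf-2 also lay in the window of the divergent gene nspg-3. At puf-6 (WBGene00004242, chromosome II, 13039792 to 13043445, minus strand) there were 2 pooled summits, at -174 and 142 bp, with values of 30.3 and 32.8. Its best value was 17.0 in replicate 1 and 15.4 in replicate 2, at -169 and 173 bp. Replicate 1 had a further summit at 167 bp with a value of 15.6, close to that of replicate 2. For fbf-1 (WBGene00001401, chromosome II, 6078263 to 6080843, minus strand) the nearest pooled summit was at 522 bp, just outside the window, with a value of 25.6. The nearest IDR summit to fbf-1 was 32992 bp away, and that to fbf-2 was 43629 bp away. This distance was 66665 bp for puf-12, 34500 bp for puf-6, 13332 bp for puf-7 and 3632 bp for puf-8.

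Sequence copies limit what can be read from some of these genes. The coding sequences of puf-6 and puf-7 were 98.5% identical and their 300 bp around the start (250 bp upstream and the first 50 bp) 96.0%. For fbf-1 and fbf-2 these were 91.7% and 66.4%, and for puf-3 and puf-11 90.2% and 84.6%. Over all 45 pairs the medians were 48.1% and 47.5%. Of the 50-base words in the start window, 54.3% in puf-6 and 58.3% in puf-7 had an exact copy elsewhere in the genome, and 40.4% of those of each were in the window of the other. The share was 20.9% in fbf-1 and 2.82% in fbf-2. It was 0 in puf-3, puf-5, puf-8, puf-9, puf-11 and puf-12. The sources used here do not say how reads with several matches were placed. The values of puf-6 and puf-7 and the lack of a summit at fbf-1 are therefore uncertain, and the part of read placement in them was not tested. The 4 members with IDR summits had no copies of this length.

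**Figure D3:**
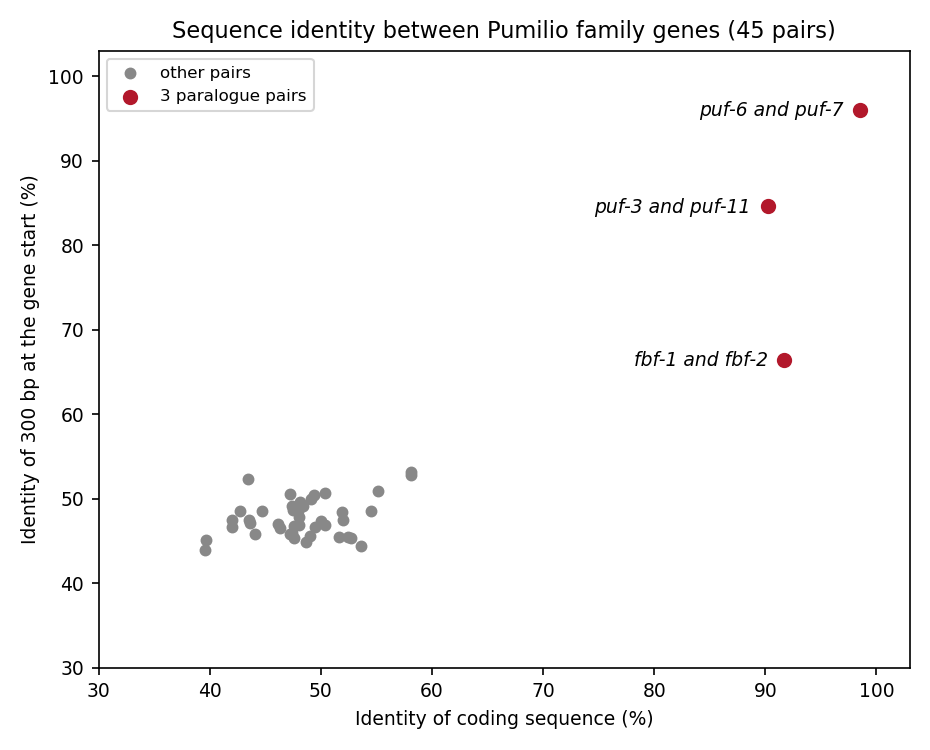
Identity in percent of coding sequence (x axis) and of the 300 bp around the start (y axis) for all 45 pairs of Pumilio family genes, by global alignment. The pairs puf-6 and puf-7, puf-3 and puf-11, and fbf-1 and fbf-2 are in red, at 98.5%, 90.2% and 91.7% coding identity, apart from the other pairs.

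The upstream peaks of puf-3 and puf-11 lay on related sequence. The 200 bp around their pooled summits were 76.3% identical, the highest of 36 pairs, whose median was 45.3%. They shared the 32-base run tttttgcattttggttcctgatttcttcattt on the gene strand of chromosome IV, which occurred 2 times in the nuclear genome. The longest run that the puf-9 window shared with any member was 11 bases.

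In the 200 bp around the best pooled summit, the short words were found at 4 of the 9 members with one. The E2F-like word TTNGCGC occurred 1 time at the puf-3 summit and 2 times at the puf-11 summit, and at no other member. It was present in 22.5% of the 1081 windows at IDR summits in coding start windows and in 8.69% of the 9461 at pooled summits there. Of all 300 bp promoters, 7.61% held it. The puf-9 window had none of the 5 words, and neither had those of fbf-2, puf-6, puf-7 and puf-12. None of the 9 windows of members held GCGCCA, the TATA box word or the GC box word. These were in 7.06%, 19.2% and 6.04% of the windows at pooled summits, and in 19.4%, 15.0% and 8.97% of the IDR windows. These letters are missing from windows of 200 bp, which says nothing of the factors. CCAAT, in 33.8% of the windows at pooled summits and 29.0% of the IDR windows, was found at the summits of puf-5 and puf-8. Of all 300 bp promoters, 45.5% held CCAAT. Those of puf-3, puf-5, puf-8, puf-9, puf-11 and puf-12 did, and those of fbf-1, fbf-2, puf-6 and puf-7 did not. The puf-9 window had a GC content of 48.0%, above the upper quartile of 46.0% for IDR windows, and 15 CG pairs, where the upper quartile is 14. The GC content at puf-3, puf-11 and puf-5 was 35.5%, 37.5% and 29.0%, beside a lower quartile of 36.5% and a median of 40.5%.

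Both puf-3 and puf-11 also had an IDR summit at the end of the gene. At puf-3 it lay 81 bp past the end in a coding exon of afmd-2, with a value of 101 and rank 1295, and at puf-11 8 bp past the end, with a value of 90.5 and rank 1603. Distances of single summits from a gene end are counted from the first base after the gene. Across all coding genes, 1.25% had an IDR summit within 100 bp of their end, and 0.541% had one there and in the start window, against 2 of the 10 members in both counts. The limit of 100 bp was chosen after these summits had been seen. The replicate values at puf-11 were 45.5 and 43.3, at -7 and -2 bp from the end, where negative values lie inside the gene. At puf-3 they were unequal, with 30.9 in replicate 1 at -9 bp from the end and 80.3 in replicate 2 at 79 bp past it, ranks 3806 and 625. Replicate 1 had no summit past the end of puf-3. A further puf-3 summit lay at -124 bp from the end, with 60.9 in the pooled list and 34.2 in replicate 2. Which of these summits the one of replicate 1 matches is therefore unclear. A weaker summit near the end of puf-5, outside the IDR set, lay at -95 bp from it in the pooled list, with a value of 71.8 and rank 2496. Its value was 25.5 in replicate 1 and 46.7 in replicate 2. The 300 bp around the gene ends of puf-3 and puf-11 were 69.8% identical, the highest of 45 pairs.

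**Figure D4:**
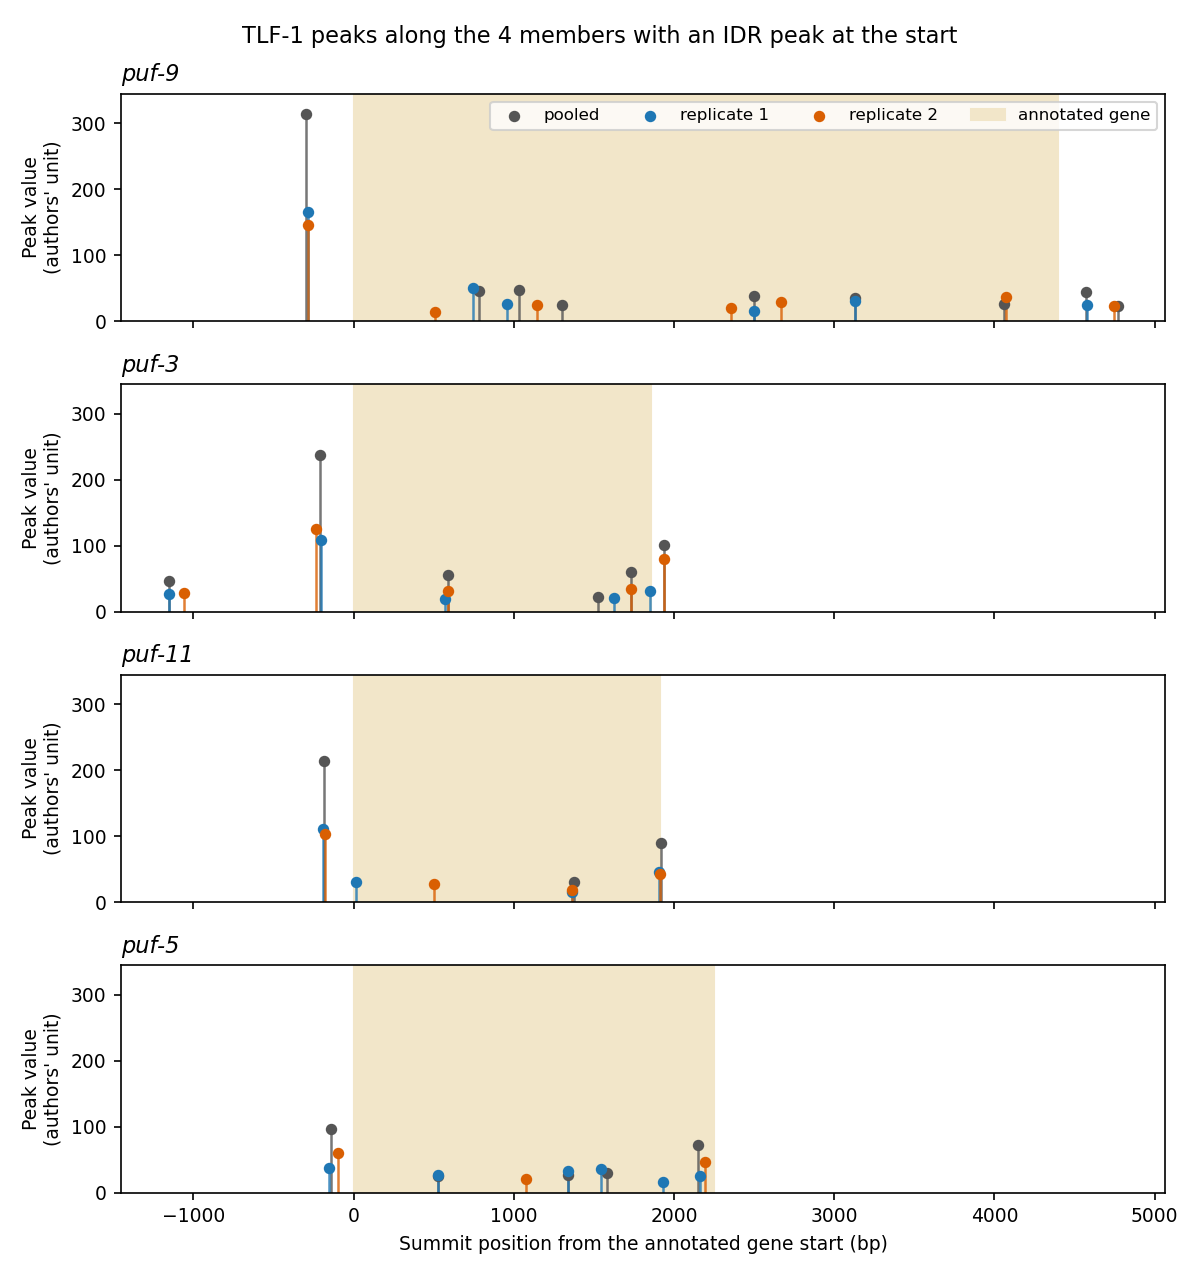
Peak value in the authors' unit (y axis) against the position of the summit from the annotated start in bp (x axis) for puf-9, puf-3, puf-11 and puf-5, in the pooled list and each replicate, with the annotated gene shaded. The highest summit of each gene is upstream of its start. Further, lower summits lie near the ends of puf-3, puf-11 and puf-5, and within and past the end of puf-9.

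The genes whose peaks were most like that of puf-9 were F59C6.18, eef-1A.1 and rfc-4, by the summed absolute log2 ratio of their ranks to those of puf-9 over the pooled list and both replicates. The sums were 0.162, 0.288 and 0.288. F59C6.18 (chromosome I) had ranks of 126 in the pooled list, 94 in replicate 1 and 168 in replicate 2. The translation elongation factor gene eef-1A.1 and rfc-4, a replication factor C subunit gene, are on chromosome III and share a peak, with ranks 127, 92 and 178.

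Genes listed as partners or targets of Pumilio proteins were also looked up, and whether each acts with them was not tested. Of 28 listed partner genes in the annotation, 8 had an IDR summit in the window (28.6%), against 6.98% of coding genes. The strongest were larp-1, for a La-related RNA-binding protein, with a pooled value of 580 (rank 18), and ifet-1, for an eIF4E-binding translational repressor, with 491 (rank 35). For larp-1 the replicate values were 255 and 324, and for ifet-1 they were 242 and 241, so both genes lay above puf-9 in each replicate. The others were spn-4 with 279, ntl-2 with 218, oma-1 with 174.5, oma-2 with 112.5, cgh-1, for a DEAD-box helicase, with 109, and gld-2, for a cytoplasmic poly(A) polymerase, with 95.5. The first 7 lay upstream of the start, from -758 bp at cgh-1 to -236 bp at spn-4, while gld-2 had its summit at 126 bp inside. The stem cell partners lst-1 and sygl-1 had pooled summits, with 53.6 and 24.2, and no IDR summit. Of 21 candidate target genes, 2 had one (9.52%), rme-2 for the yolk receptor with 228 at -89 bp and rnr-1 for a ribonucleotide reductase subunit with 110 at -146 bp. The somatic target hbl-1, which like puf-9 is on X, had no summit in its window in any of the 4 lists. The genes lst-1, sygl-1 and hbl-1 were named after their values had been seen. With a window of 500 bp before to 100 bp after the start, 6 of the 10 partners and targets keep a summit, and 6 do in the stronger 940 IDR peaks. The narrower window loses the strongest partners, larp-1 (-650 bp) and ifet-1 (-507 bp), and also cgh-1 and gld-2. These lists of partners and targets were drawn up from general knowledge, with earlier results of these data known, and are not complete. Their shares beside that of all coding genes are therefore only a description.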

How the data were processed

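TLF-1 binding was measured by chromatin immunoprecipitation and sequencing in 2 biological replicates of 1 group. Per the notes deposited with the files, the authors made each replicate list from its alignments and a control, on ce11, and the IDR set from the replicate and pooled lists. Caller, aligner and IDR threshold were not given in the sources used here. Peaks were ranked by the deposited signal value and placed by the deposited summit offset. The −log10 q-value of the authors decided nothing. Depth is unknown.

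Gene models were Ensembl release 115 on WBcel235 and sequence came from RefSeq. No test was made, and the members are set beside the share of all coding genes. Identity came from global alignment (match 1, mismatch -1, gap opening -3, extension -0.5). Words of 36 and 50 bases were searched on both strands for copies. Members and gene lists were chosen with earlier results of these data known. Of 50 pathway genes listed, ntl-1 had no annotation entry under that name. The genes named are the 10 members, pathway genes with an IDR summit, neighbours sharing a summit and the 3 genes most like puf-9. Alternatives covered the window, peak overlap, transcript starts, stronger peaks and each replicate alone. The code was tested on simulated data. Python 3.11.15, numpy 2.4.6, pandas 2.3.3, Biopython 1.88 and matplotlib 3.10.9 were used. A sequence window at 1 member is not reported here.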

Additional observations from a re-analysis of the deposited data

How the results depend on the processing

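Of 52 alternative values, 44 stayed within 1.5 times of the count or within the replicate spread, and 8 moved. Some of the 44 could not change, so this count does not measure robustness. Each member has 1 annotated transcript start, so taking every transcript start repeated the member results. The puf-9 summit at -298 bp lies inside both narrower windows, which fixed its rank and distance there. The IDR count of 4 members was 3 without replicate 2 or in the stronger 940 IDR peaks, where puf-5 was lost, and 4 otherwise, without replicate 1 included. Leaving out a replicate here means the 1880 strongest peaks of the other one. Without each replicate the rank of puf-9 ranged from 96 to 161, its distance from -286 to -284 bp against -298, and its ratio to the next member from 1.17 to 1.49. The pathway count stayed at 10, but not with the same genes. Without replicate 1, cgh-1 (rank 2082 in replicate 2) and gld-2 (rank 3625) were lost, and other partner genes took their place. The pathway count was 6 with 500 bp upstream to 100 bp downstream and 6 in the stronger 940 peaks, which hold fewer peaks. Among the 1880 strongest peaks the counts were 4 of the pooled list (9 with all peaks), 3 of replicate 1 (7) and 4 of replicate 2 (9). The CCAAT word was at 2 members in 200 bp and at 0 in 100 bp. The peak lists carry no read depth, so its limits are not known. No paired analysis was possible because there is 1 group.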

Other observations

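Pooled summits beyond the start window were counted in each member. From 500 bp after the start to 500 bp past the end, puf-9 had 8 pooled summits, or 1.82 per kb, puf-3 had 4, or 2.16 per kb, and puf-5 had 4, or 1.78 per kb. These counts include the IDR summit past the end of puf-3 and the 2 summits of puf-9 past its end, at 4569 and 4771 bp. The density was 1.16 per kb in fbf-1, 1.05 in puf-11, 0.727 in puf-12, 0.468 in puf-8, 0.382 in fbf-2 and 0.277 in puf-7. The same span gave 0.332 pooled summits per kb over all coding genes. The strongest of those in puf-9 had a pooled value of 47.5. Summits of any q-value were counted, in the members and over all coding genes. In this span the authors' −log10 q-value was 0.0531 to 1.14 for the 8 pooled summits of puf-9, against 3.51 for its upstream peak. It ran from 0.0442 to 3.51 for the 4 of puf-3 and from 0.119 to 3 for the 4 of puf-5. The 5 replicate 1 summits in this span of puf-9 lay between 146 and 465 bp from the nearest replicate 2 summit, whereas the replicates placed the upstream summit 2 bp apart. In replicate 1 the summit at 748 bp, in a coding exon, had a value of 50.5 and rank 1343, and the nearest in replicate 2 was at 507 bp, with a value of 14.8 and rank 22943. Over the same span puf-6 had 0 pooled summits and puf-7 had 1.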
